A study of Mus musculus with 384 samples.

Results

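The livers described here came from the 23 of 94 high fat mice that held the most RNA of 3 markers of lipid-associated macrophages. For each mouse a score was taken as the mean of log2(value + 0.06) of Gpnmb, Trem2 and Cd63. The mice were chosen by these 3 measured values alone. They were ranked by the score within each sex, and a share of 0.25 of each sex was taken from either end, rounded down: a top group of 12 females and 11 males and a bottom group of 12 females and 11 males. The other 48 high fat mice lay between the 2 groups, and 98 chow mice completed the 192 mice of the series. The grouping rests on RNA measured in the same libraries as the results, so the 3 score genes are described and were not tested.

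All mice were wild type Diversity Outbred animals (J:DO, stock 009376 of The Jackson Laboratory), an outbred stock in which each mouse carries its own mixture of founder strain genomes. From weaning they ate standard chow with 6% fat by weight (LabDiet 5K52) or a high fat diet with 22% fat by weight (TD.08811), and their livers were taken at 26 weeks of age. Libraries of bulk liver mRNA gave reads of 100 bp from a single end. The 384 deposited samples were 2 technical repeats of each mouse, which the deposited table merged into a single column, so the mouse was the replicate. No label records liver histology, fat content or body weight, and whole liver RNA mixes hepatocytes with every other cell of the organ. The p-values below measure the spread between these mice.

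Lipid-associated macrophages are phagocytes that take up lipid and cell debris and carry the receptor TREM2, the glycoprotein GPNMB and lysosomal proteins such as CD63. In fatty liver they arise largely from blood monocytes and gather near steatotic hepatocytes and scars, whereas resident Kupffer cells, marked by Clec4f, Vsig4 and Timd4, line the sinusoids. TREM2 binds lipids and lipoproteins and signals through the adaptor TYROBP and the kinase SYK.

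Estimated depth was 9.78 to 17.9 M reads (megareads) per mouse (median 14.2). Among females the top group had a median of 13.3 and the bottom group 14.2 M reads, and among males 15.2 and 13.7. A scaling factor by the median-of-ratios method, which follows the bulk of genes, differed between the 2 groups. In males it was 1.02 to 1.08 in the bottom and 0.839 to 0.987 in the top group, and in females the medians were 0.987 and 0.923. The generation label G11L2 was carried by 13 of 23 top and 11 of 23 bottom mice (Fisher's exact test, two-sided, p = 0.768), and an agouti coat by 17 and 16 (p = 1.0). Among the 10 mice least like the rest of their group 2 were top and 2 bottom mice. Transcripts of pancreas were high in 10 mice, of which 3 were bottom mice and none were top mice.

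The score genes separated the 23 top from the 23 bottom mice, with the mice between the 2 groups reaching into the top range. Gpnmb (ENSMUSG00000029816, chr6:49036546-49070929, plus strand, GRCm38) had deposited values of 1.05 to 14.2 in the top group (median 3.47) and 0.0175 to 0.219 in the bottom group (median 0.0741). Trem2 (ENSMUSG00000023992, chr17:48346401-48354147, plus strand) ran from 0.283 to 2.55 (median 0.667) against 0 to 0.184 (median 0.0417). Cd63 (ENSMUSG00000025351, chr10:128900989-128912822, plus strand) ran from 1.44 to 7.86 (median 2.41) against 0.4 to 0.925 (median 0.625). None of the 3 genes overlapped between the 2 groups, which the choice of mice makes likely by itself. The 48 mice between them reached 2.24 for Gpnmb, 0.480 for Trem2 and 3.71 for Cd63, above the lowest top mouse in each gene. The pseudocount of 0.06 equalled about 3.80 reads of the median mouse, so Trem2 in the bottom group rests on a few reads.

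Bottom mice resembled chow mice in these genes. Gpnmb in the 98 chow mice ran from 0 to 0.9 (median 0.0569), and the score from -3.36 to -1.08 (median -2.33) beside a median of -2.22 in the bottom and 0.796 in the top group. No chow mouse reached the lowest top mouse of its sex, while 6 of 50 chow females and 4 of 48 chow males lay above the highest bottom mouse. The lowest top mouse had a score of -0.04 in females and 0.39 in males, just above the highest mouse between the 2 groups at -0.20 and 0.20. At the lower edge the highest bottom mouse stood at -1.76 in females and -1.89 in males, and its neighbour at -1.75 and -1.88. Both edges were therefore cuts through a continuous range. Ranking by Gpnmb, Trem2 or Cd63 alone kept 21, 22 and 17 of the 23 top mice and 18, 15 and 18 of the 23 bottom mice, and moved no mouse into the opposite group.

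**Figure D1:**
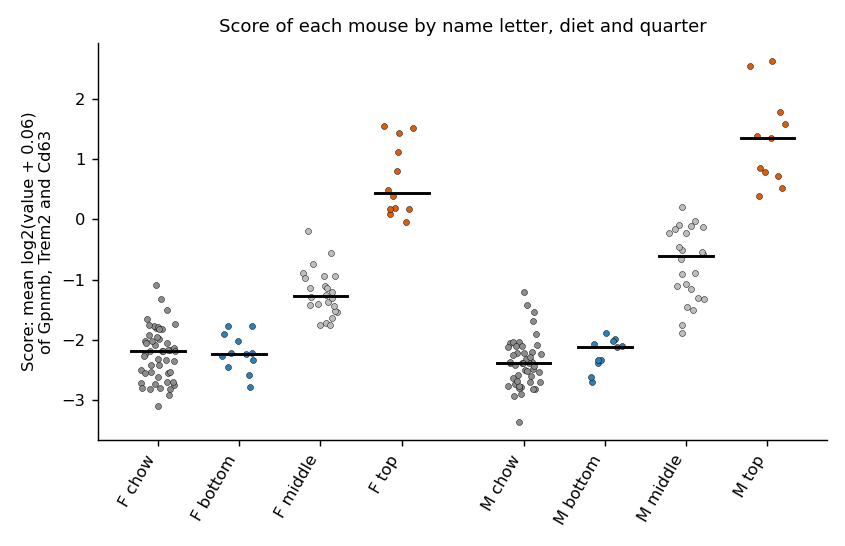
Each point is the score of 1 mouse, the mean log2(value + 0.06) of Gpnmb, Trem2 and Cd63, by sex, diet and score group. The 23 top mice spread from -0.04 to 2.63, wider than the 23 bottom mice at -2.78 to -1.76, which lie within the range of the 98 chow mice.

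Between the 2 groups 6005 of 14751 tested genes (40.7%) passed limma's test at an adjusted p under 0.05, 1299 of them higher (8.81%) and 4706 lower (31.9%) in the top group. This split depended on scaling. After median-of-ratios rescaling 1715 were higher (11.6%) and 870 lower (5.9%), and after quantile normalization 1275 (8.64%) and 908 (6.16%), so that higher genes made up 21.63%, 66.34% and 58.41% of the calls. The median change of all genes was -0.13 on the log2 scale as deposited, -0.01 rescaled and -0.03 after quantile normalization, and small declines below are to be read against it. Genes called in the same direction under all 3 scalings numbered 966 higher (6.55%) and 486 lower (3.29%), and "in all 3 scalings" below means this. A change of at least 1.5-fold was found for 520 higher (3.53%) and 179 lower genes (1.21%). Without the 10 mice least like their group 1032 were higher and 3681 lower, and without the mice high in pancreas transcripts 1192 and 4461. The 22 mice of generation G11L1 alone gave 112 higher and 88 lower genes and the 24 of G11L2 alone 983 and 3153, and the difference between the generations was not tested. In bulk RNA more cells of a type and more RNA per cell cannot be told apart.

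Other genes of lipid-associated macrophages rose with the score genes. Of 21 tested members of a list of such markers, which leaves out the 3 score genes, 15 were higher and 1 lower, and 14 were higher in all 3 scalings. The median change of the list was 0.80 as deposited and 0.92 rescaled, beside -0.13 and -0.01 for all genes. Summed over the list as a mean log2(value + 0.06), each of the 23 top mice lay above the highest bottom mouse of its own sex, as did 22 of 23 after rescaling.

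Mmp12, macrophage elastase, which cuts elastin and is made mainly by macrophages, had the largest rise (ENSMUSG00000049723, chr9:7344381-7369499, plus strand). Its deposited values were 1.12 to 9.37 in the top group (median 3.29) and 0.0417 to 0.956 in the bottom group (median 0.306), with 0 to 0.985 in chow mice (median 0.220). The 2 groups did not overlap. The log2 change was 3.47 ± 0.25 (SE, limma, adjusted p = 1.8e-13), or 11.1-fold on the log2(value + 0.06) scale, with 2.92 in females and 4.07 in males. Mmp12 and Adam8 were the 2 genes of 14751 (0.0136%) whose groups did not overlap. Adam8, a metalloprotease of leukocyte surfaces (ENSMUSG00000025473, chr7:139978932-139992562, minus strand), is named for that separation, seen in its values. It had 0.177 to 1.55 (median 0.338) in top and 0.0181 to 0.167 (median 0.0746) in bottom mice, a log2 change of 1.64 ± 0.18 (SE, limma, adjusted p = 1.89e-08).

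Itgax encodes CD11c, the integrin alpha X chain of dendritic cells and of lipid-laden macrophages (ENSMUSG00000030789, chr7:128129547-128150657, plus strand). It ran from 0.314 to 2.67 (median 0.999) in top and 0.0335 to 0.588 (median 0.164) in bottom mice, and 20 of 23 top mice lay above the highest bottom mouse. The log2 change was 2.27 ± 0.21 (SE, limma, adjusted p = 3.07e-10). Of the 50-base words of its transcripts 8.02% also occur in Itgad, its close relative on the same chromosome.

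The RefSeq promoter windows of these genes are shown because the transcripts were higher in the top group. Each window (GRCm38.p6) runs from 250 bases before to 50 after a transcription start, 5′ to 3′ on the gene's strand. Capitals mark matches to TGACTCA, the AP-1 motif, or to GAGGAAGT, a PU.1-type motif, on either strand, so TGAGTCA and ACTTCCTC are the same motifs read from the opposite strand. CACGTG, the core bound by TFEB and other E-box factors, was also searched and occurs in none of them. Gpnmb is shown at chr6:49036268-49036567, plus strand. Mmp12 has windows at chr9:7344147-7344446 and at chr9:7347124-7347423, plus strand. Itgax is shown at chr7:128129300-128129599, plus strand, and Adam8 at chr7:139992513-139992812, minus strand.
Gpnmb: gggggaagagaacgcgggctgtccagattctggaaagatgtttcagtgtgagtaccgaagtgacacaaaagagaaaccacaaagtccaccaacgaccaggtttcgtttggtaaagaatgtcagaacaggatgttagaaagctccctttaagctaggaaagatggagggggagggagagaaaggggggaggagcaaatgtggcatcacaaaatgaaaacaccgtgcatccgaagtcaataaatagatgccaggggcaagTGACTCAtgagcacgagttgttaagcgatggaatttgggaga
Mmp12 first start: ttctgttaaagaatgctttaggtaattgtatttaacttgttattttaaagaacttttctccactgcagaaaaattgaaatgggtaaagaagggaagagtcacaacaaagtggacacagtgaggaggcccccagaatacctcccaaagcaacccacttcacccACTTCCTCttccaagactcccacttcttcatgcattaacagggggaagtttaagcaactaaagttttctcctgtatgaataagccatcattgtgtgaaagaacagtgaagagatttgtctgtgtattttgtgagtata
Mmp12 second start: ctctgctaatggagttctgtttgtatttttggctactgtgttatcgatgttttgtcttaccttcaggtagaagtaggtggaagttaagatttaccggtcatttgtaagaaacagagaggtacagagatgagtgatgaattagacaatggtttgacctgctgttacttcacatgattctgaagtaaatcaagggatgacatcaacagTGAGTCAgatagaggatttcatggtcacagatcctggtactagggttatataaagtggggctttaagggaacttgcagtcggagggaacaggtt
Itgax: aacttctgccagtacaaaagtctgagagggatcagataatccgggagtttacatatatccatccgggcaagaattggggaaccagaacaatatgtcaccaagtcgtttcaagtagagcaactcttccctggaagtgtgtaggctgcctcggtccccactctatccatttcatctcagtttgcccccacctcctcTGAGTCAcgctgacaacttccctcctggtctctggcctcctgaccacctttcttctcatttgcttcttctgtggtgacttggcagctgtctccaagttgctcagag
Adam8: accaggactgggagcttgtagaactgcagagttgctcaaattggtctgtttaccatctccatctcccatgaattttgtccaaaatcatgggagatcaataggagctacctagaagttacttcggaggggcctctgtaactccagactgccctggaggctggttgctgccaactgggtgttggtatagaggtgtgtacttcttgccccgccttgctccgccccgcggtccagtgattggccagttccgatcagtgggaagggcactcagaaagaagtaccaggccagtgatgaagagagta
The TGACTCA match of Gpnmb begins 8 bases past its start, that of the second Mmp12 window 44 bases before and that of Itgax 56 bases before. The first Mmp12 window holds ACTTCCTC from 88 bases before its start, and the Adam8 window holds none of the motifs. The windows of the other score genes, Trem2 and Cd63, were searched too and hold none of them either. Over all 32851 mouse windows of this length TGACTCA occurs in 5.2%, GAGGAAGT in 3.2% and CACGTG in 7.15%. Windows were found for 724 of 961 genes higher in all 3 scalings, and 7.21%, 5.36% and 7.0% of their 971 windows hold these motifs. Over the 13975 windows of tested genes the shares are 3.96%, 3.13% and 9.52%. Genes lower in all 3 scalings, 376 of 482 matched, have 2.58%, 2.39% and 10.1%. These shares describe letters in the windows and were not tested.

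Further markers of the list rose by smaller amounts. Lgals3, galectin-3, ran from 1.27 to 9.37 in top and 0.367 to 1.88 in bottom mice, a log2 change of 1.68. Lpl, lipoprotein lipase, which frees fatty acids from triglyceride-rich particles, ran from 3.47 to 24.8 against 1.63 to 7.1, a log2 change of 1.65. In both genes 17 or 18 of 23 top mice exceeded the highest bottom mouse. Clec7a (dectin-1, a receptor for beta-glucans) changed by 1.61, Capg by 1.56 and Spp1 (osteopontin) by 1.27. Anxa5, Il1rn, Ms4a7, Cd68, Atp6v0d2, Cd36 and Cd9 rose by 0.55 to 1.00, while Dcstamp at 0.53 did not pass after quantile normalization. Reads of Spp1 and Cd9 overlap unnamed gene models on part of their exons, and the libraries do not mark strand.

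Other markers of the list did not pass as deposited. Fabp5, a fatty acid binding protein, had 1.64 to 48.4 in top and 1.05 to 29.5 in bottom mice, with a log2 change of 0.24 ± 0.41 (SE, limma, adjusted p = 0.661). Syngr1, Creg1, Pld3 and Nceh1 did not pass either, and Lhfpl2 fell by 0.24 on the log2 scale only in the deposited scaling. Cd36, the fatty acid transporter, which hepatocytes also make, differed by 0.01 in females and 1.22 in males.

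**Figure D2:**
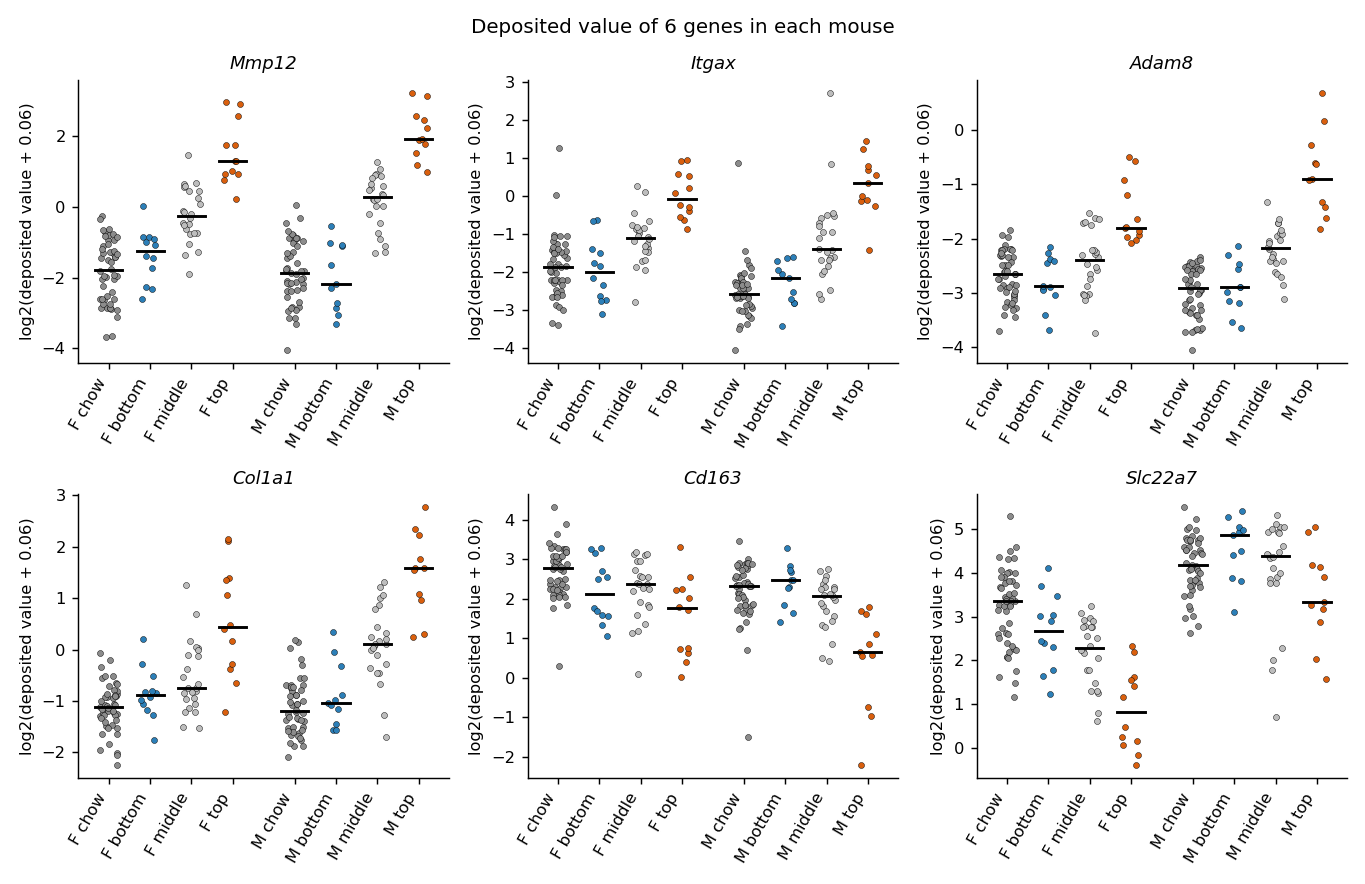
Log2(deposited value + 0.06) of 6 genes in each mouse, by sex, diet and score group. Mmp12 and Adam8 do not overlap between the 2 groups, Itgax and Col1a1 overlap in a few mice, and Cd163 and Slc22a7 are lower in most top mice but overlap widely.

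Genes of TREM2 signalling rose in part. Of 13 tested members 8 were higher and none lower, all 8 in all 3 scalings, with a median change of 0.37. Tyrobp, the adaptor of TREM2, ran from 1.71 to 6.23 (median 3.35) in top and 1.23 to 3.72 (median 2.04) in bottom mice, a log2 change of 0.61 ± 0.13 (SE, limma, adjusted p = 0.000514). Syk, the kinase that docks on TYROBP, changed by 0.65, and every top mouse lay above the median of the bottom group. The membrane protein gene Ms4a6d changed by 0.84, Vav1 by 0.53, the phosphatase gene Inpp5d by 0.52, the receptor gene Axl by 0.48, Plcg2 by 0.34 and the sheddase gene Adam10 by 0.11. Apoe, which encodes a ligand of TREM2 and is made in bulk by hepatocytes, did not pass, at -0.18 ± 0.11 (SE, limma, adjusted p = 0.205), nor did Adam17 at -0.01 or Mertk at -0.08.

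Most genes of resident Kupffer cells did not pass the test. Clec4f, the lectin that defines mouse Kupffer cells, had 10.9 to 54.6 (median 22.7) in top and 14 to 43.2 (median 26.6) in bottom mice. Its log2 change was -0.08 ± 0.14 (SE, limma, adjusted p = 0.648). Vsig4, a complement receptor, changed by -0.16 (adjusted p = 0.436) and Timd4, a receptor for dying cells, by -0.16 (adjusted p = 0.464). Of the 18 genes of the Kupffer list 3 were higher and 3 lower, and 3 and 1 in all 3 scalings, with a median of 0.04. The complement genes C1qa, C1qb and C1qc, which other macrophages also make, were the ones that rose, by 0.32 to 0.38.

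Cd163, the haemoglobin scavenger receptor of resident macrophages, fell (ENSMUSG00000008845, chr6:124304656-124330527, plus strand). It had 0.157 to 9.86 (median 1.76) in top and 2.01 to 9.73 (median 5.45) in bottom mice, and 21 of 23 top mice lay below the bottom median. The log2 change was -1.20 ± 0.26 (SE, limma, adjusted p = 0.000653). In males the top group reached 3.43 and the bottom group began at 2.62, while in females the 2 groups overlapped over most of their range (0.961 to 9.86 against 2.01 to 9.73). The change was -1.82 in males and -0.62 in females, and the difference between the sexes did not pass the test.

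Monocyte genes were higher. Of 12 tested members 9 were higher and none lower, 8 in all 3 scalings, with a median of 0.69, and each of the 23 top mice had a list level above the bottom median of its sex. Ccr2, the receptor that draws monocytes out of the bone marrow, ran from 0.390 to 2.18 (median 1.01) in top and 0.135 to 0.672 (median 0.392) in bottom mice. In 20 of 23 top mice it exceeded the highest bottom mouse, with a log2 change of 1.36 ± 0.16 (SE, limma, adjusted p = 6.42e-08). Cx3cr1, the fractalkine receptor, changed by 1.66, lysozyme gene Lyz2 by 1.21, Cd14 by 1.06 and F13a1 by 1.00. Ly6c2, the marker of classical blood monocytes, did not pass (0.25, adjusted p = 0.32), nor did Itgam (0.51, adjusted p = 0.0653). Lyz2 shares 15.4% of its 50-base words with other genes, chiefly Lyz1.

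The genes of lysosomes, the organelle in which CD63 and GPNMB reside, were divided only in the deposited scaling. Among 30 lysosomal genes 7 were higher and 6 lower as deposited. After median-of-ratios rescaling 10 were higher and 0 lower, and after quantile normalization 14 and 0. Of all tested genes 11.6% and 8.64% were higher in these 2 scalings. The 7 higher genes kept their call in all 3 scalings. The median was 0.02 as deposited, 0.14 rescaled and 0.24 after quantile normalization. Those 7 were led by Laptm5 at 0.74 and the cathepsin gene Ctss at 0.70, both made largely by leukocytes, ahead of Hexa, Ctsd, Gusb, Psap and Asah1 at 0.17 to 0.35. Lipa, the acid lipase that all cells use, changed by 0.00 ± 0.07 (SE, limma, adjusted p = 0.985). Among 20 proton pump subunits and their regulators 1 was higher (Tcirg1, 0.21) and 3 lower, none of the 3 in all scalings. After median-of-ratios rescaling 4 of them were higher and 0 lower, and after quantile normalization 5 and 0. CACGTG occurs in 9 of 26 promoter windows of the lysosomal list, 34.6% beside 7.15% of all windows, and this share does not depend on the 2 groups. Among 14 tetraspanins, the family of CD63, the epithelial Tspan8 (0.93), the leukocyte gene Cd53 (0.71), Cd9 and Tspan3 (0.30) were higher and Tspan33 was lower (-0.74) in all 3 scalings.

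General phagocyte genes rose together. Of 26 such genes, among them receptors and oxidase subunits, 19 were higher and none lower, 18 in all 3 scalings, with a median of 0.60. Cybb, the catalytic subunit of the phagocyte oxidase, changed by 0.81, the Fc receptor gene Fcgr1 by 0.73, the Toll-like receptor gene Tlr2 by 0.70 and Spi1, which encodes PU.1, by 0.68. All 7 calls among 8 genes of MHC class II presentation were higher in all 3 scalings. H2-Aa ran from 8.1 to 31.3 (median 16.6) against 3.13 to 25.7 (median 10.7), a log2 change of 0.73, and the regulator Ciita changed by 0.70. Markers of other leukocytes were higher in part. Of 8 neutrophil genes 7 were higher as deposited and 7 after median-of-ratios rescaling, with a median of 0.67, and 2 were higher in all 3 scalings (S100a8, Csf3r). The summed level of the neutrophil list was 1.02 to 8.47 (median 2.50) in top and 0.572 to 3.61 (median 1.27) in bottom mice. Of 21 lymphocyte genes 8 were higher as deposited and 7 rescaled, with a median of 0.32, and 2 in all 3 scalings (Gzma, Ltb). The summed level of the lymphocyte list was 2.65 to 16.2 in top and 2.63 to 19.6 in bottom mice. Of 9 dendritic cell genes 1 was higher (Irf8), in all 3 scalings. The part of these cells in the results was not tested.

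Chemokine and cytokine genes were higher in 9 of 17 tested members and lower in none, all 9 in all 3 scalings, with a median of 0.48. Ccl2, the ligand of CCR2, ran from 0.163 to 1.05 (median 0.487) in top and 0 to 0.434 (median 0.0882) in bottom mice. In 13 of 23 top mice it exceeded the highest bottom mouse, with a log2 change of 1.68 ± 0.23 (SE, limma, adjusted p = 1.92e-06). Among the other called members Ccl22 changed by 1.14, Ccl6 by 0.97, Ccl5 by 0.88, the CX3CR1 ligand gene Cx3cl1 by 0.86, Tnf by 0.61, Cxcl16 by 0.44 and Tgfb1 by 0.26.

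**Figure D3:**
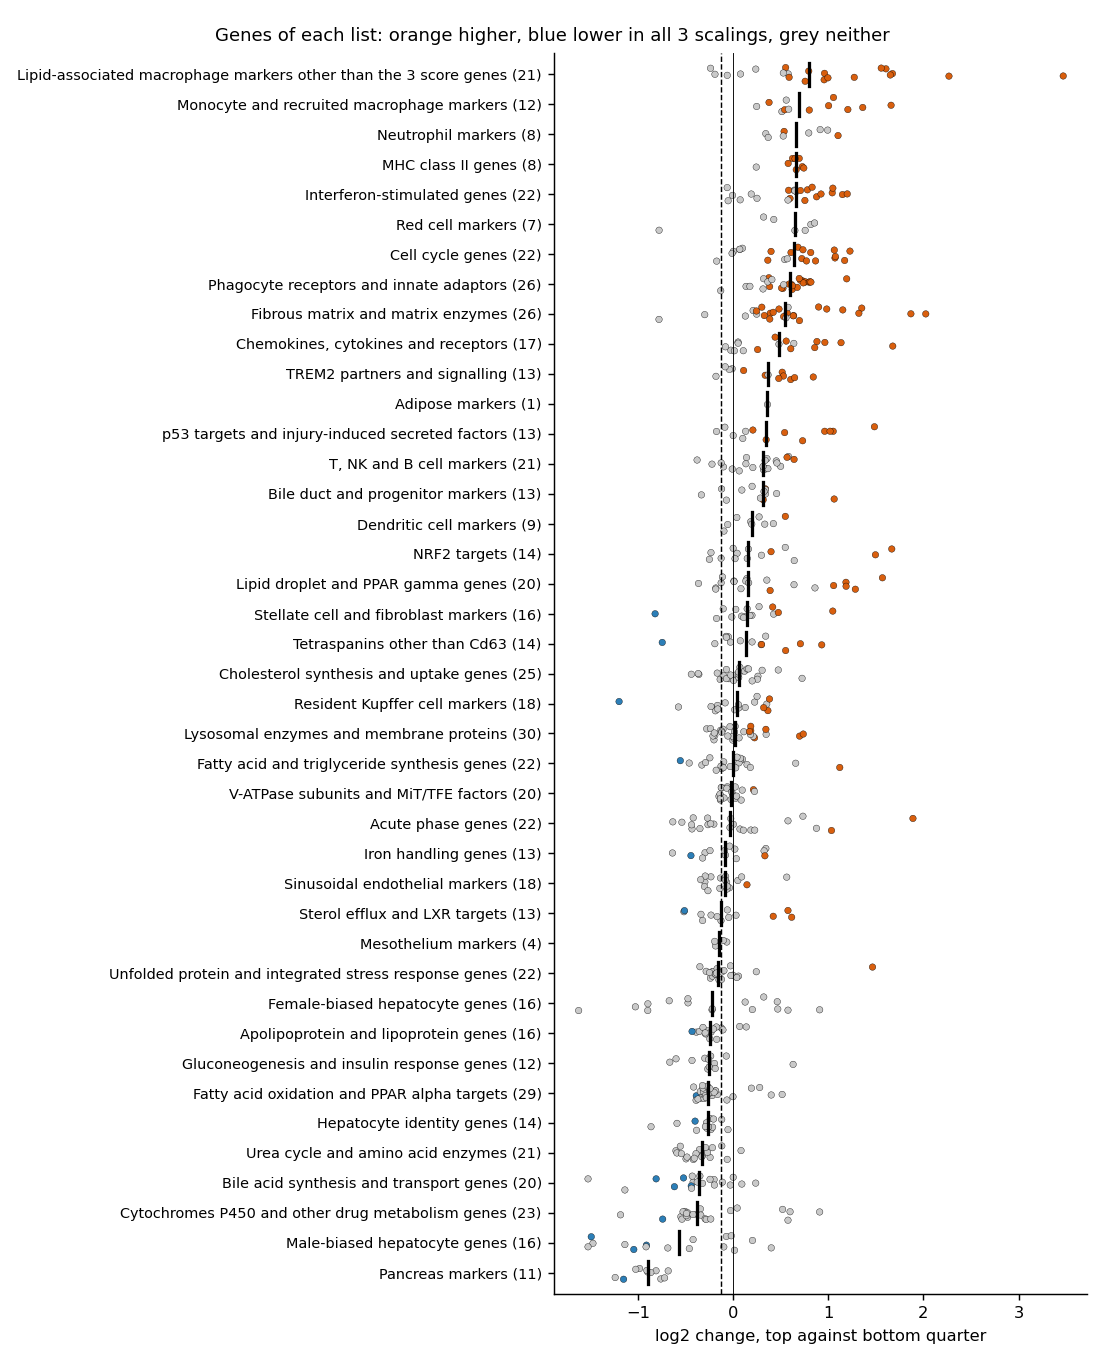
Log2 change, top against bottom group, of every tested gene in the lists, 1 point per gene, orange or blue where it was higher or lower in all 3 scalings. Changes are those of the deposited scaling. Phagocyte, monocyte, chemokine and matrix genes lie mostly above the median of all genes at -0.13. Genes of the bile acid, urea cycle and amino acid, xenobiotic and fatty acid oxidation lists lie mostly below it. The medians of the fatty acid synthesis and cholesterol lists lie above it.

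Fibrillar collagen and matrix remodelling genes formed the largest group outside the leukocyte lists. Of 26 tested members 20 were higher and none lower, 19 in all 3 scalings, with a median of 0.54 as deposited and 0.67 rescaled. Col1a1, the alpha 1 chain of type I collagen (ENSMUSG00000001506, chr11:94936224-94953042, plus strand), ran from 0.373 to 6.74 (median 2.06) in top and 0.236 to 1.2 (median 0.447) in bottom mice. In 16 of 23 top mice it lay above the highest bottom mouse, and its log2 change was 1.87 ± 0.24 (SE, limma, adjusted p = 3.42e-07). Mmp13, a collagenase, was scarcely read in the bottom group (0 to 0.0822) and ran from 0.0135 to 2.19 in the top group, a log2 change of 2.02. Col3a1 changed by 1.35, the protease inhibitor gene Timp1 by 1.32, Col1a2 by 1.15, Thbs1 by 0.98 and the cross-linking enzyme gene Loxl1 by 0.70.

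Most markers of stellate cells, the main collagen makers of liver, did not pass the test as deposited. Of 16 markers 3 were higher and 1 lower, all 4 in all 3 scalings: Lum at 1.05, Cygb at 0.48, Pdgfrb at 0.42 and Hhip, a hedgehog inhibitor, at -0.82. After median-of-ratios rescaling 6 were higher and 1 lower, with a median of 0.27, beside 11.6% and 5.9% of all tested genes. Acta2, the actin of activated myofibroblasts, ran from 0.263 to 2.33 against 0.368 to 2.42, with a log2 change of 0.11 ± 0.19 (SE, limma, adjusted p = 0.651). Lrat, which stores retinol as ester, changed by 0.15 (adjusted p = 0.3). Bile duct genes were higher in 4 of 13, with Sox4 (1.06), Krt8 (0.34) and Krt18 (0.32) in all 3 scalings, while Krt19 (-0.12, adjusted p = 0.601) and Epcam (0.34, adjusted p = 0.281) did not pass. Krt8 and Krt18 are also made by hepatocytes, and 54.1% of the words of Sox4 fall in an antisense gene model. Among 18 sinusoidal endothelial genes 1 was higher and 6 lower, none of the 6 in all scalings, shares near those of all tested genes (8.81% higher and 31.9% lower).

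Among lipid droplet genes 7 of 20 were higher and none lower, 6 in all 3 scalings, with a median of 0.16. Cidec, which fuses droplets, ran from 0.431 to 30.2 (median 2.33) in top and 0.24 to 16 (median 0.683) in bottom mice, a log2 change of 1.19 ± 0.44 (SE, limma, adjusted p = 0.0281). The droplet coat gene Plin4 changed by 1.29, the nuclear receptor gene Pparg by 1.19 and Vldlr, which takes up lipoproteins, by 1.06. Cidea was near 0 in most mice (medians 0.0833 and 0.0278) and reached 21.6 in a top mouse, so that its change of 1.57 rests on the 8 top mice above the bottom range. Plin2, the common droplet coat gene, did not pass (0.15, adjusted p = 0.366). All of these genes are also made by hepatocytes, and no label gives the fat content of the livers.

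Lipid synthesis genes had few calls. Of 22 genes of fatty acid synthesis 1 was higher (Scd2, 1.12) and 2 were lower, of which Mlxipl, the gene of the carbohydrate sensor ChREBP, fell by 0.55 on the log2 scale, with calls in all 3 scalings. Mlxipl ran from 35.7 to 89.8 (median 51.8) in top and 51.2 to 137 (median 70.1) in bottom mice, and it also had a called slope in the chow mice (-0.36, limma, adjusted p = 0.00848). Of 25 genes of cholesterol synthesis and uptake none was higher and 3 were lower, none in all scalings and the list median was 0.42 in females and -0.36 in males. Of 13 sterol efflux and esterification genes 3 were higher and 5 lower as deposited, beside 8.81% and 31.9% of all tested genes. In all 3 scalings 3 were higher and 1 lower. The list median was -0.13, as for all genes. The higher ones were Abcg1 (0.62), the phospholipid transfer protein gene Pltp (0.58) and Soat1 (0.42). Cyp27a1 (-0.51) was lower, and so were Abca1 (-0.34) and Nr1h3 (-0.23) as deposited. Abcg1 and Soat1 serve macrophages that load cholesterol, and Abcg1 ran from 1.92 to 4.31 in top against 1.2 to 2.6 in bottom mice.

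Some genes of hepatocyte work were lower, beside 31.9% of all tested genes lower as deposited, 5.9% after median-of-ratios rescaling and 3.29% in all 3 scalings. Bile acid synthesis and transport had 10 of 20 members lower and none higher, 8 after median-of-ratios rescaling and 4 in all 3 scalings, with a median of -0.36 as deposited, -0.23 rescaled and -0.13 after quantile normalization. The list level of each of the 23 top mice lay below the bottom median of its sex, also after rescaling. Slc10a1, which encodes the bile acid uptake transporter NTCP, ran from 61.9 to 172 (median 112) in top and 115 to 224 (median 156) in bottom mice, a log2 change of -0.62 ± 0.10 (SE, limma, adjusted p = 4.51e-05). In males its groups did not overlap as deposited, at 65.3 to 117 against 137 to 224. The median-of-ratios factors of the male groups did not overlap either. Whether the separation of Slc10a1 in males holds after rescaling was not tested, and other genes that separate in males were not counted. Cyp2c70, the enzyme of mouse muricholic acids, fell by 0.81 on the log2 scale, Abcb11, the bile salt export pump gene, by 0.52 and the conjugation gene Slc27a5 by 0.44. Cyp7a1, the rate-limiting enzyme, did not pass (-0.42, adjusted p = 0.199), nor did Cyp8b1 (-0.38, adjusted p = 0.0892).

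In the other hepatocyte lists 0 or 1 member was lower in all 3 scalings, and several counts lay near the shares of all genes, so they are not read as a result about these lists. Of 21 urea cycle and amino acid genes 13 were lower and none higher, 7 after median-of-ratios rescaling and none in all 3 scalings, with Cps1, the first enzyme of the cycle, at -0.60 as deposited and -0.24 after quantile normalization (adjusted p = 0.132). Of 29 genes of fatty acid oxidation 13 were lower, 6 rescaled and 1 in all scalings (Cpt2, -0.39). Of 23 xenobiotic genes 10 were lower, 4 rescaled and 1 in all scalings (Ugt2b1, -0.74). Of 16 lipoprotein genes 8 were lower, 4 rescaled and 1 in all scalings (Lipc, hepatic lipase, -0.43), and the list median turned from -0.24 to 0.10 under quantile normalization. Of 14 hepatocyte identity genes 7 were lower and 2 rescaled, and Hnf4a turned from -0.28 to 0.00 under quantile normalization. Of 12 gluconeogenesis and insulin genes 5 were lower, 2 rescaled and none in all scalings, and Alb did not pass (-0.23, adjusted p = 0.371).

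Among injury and stress genes the p53 list, which holds p53 targets and injury-induced secreted factors, had the largest share of calls. Of its 13 genes 8 were higher and none lower, all in all 3 scalings, with a median of 0.35. Cdkn1a, the cell cycle inhibitor p21, ran from 0.443 to 7.17 (median 1.18) in top and 0.08 to 2.07 (median 0.642) in bottom mice, a log2 change of 1.49 ± 0.30 (SE, limma, adjusted p = 0.000309). Eda2r changed by 1.05, Phlda3 by 1.02 and the stress hormone gene Gdf15 by 0.96, while Mdm2, the p53 ligase and target, changed by 0.00 ± 0.06 (SE, limma, adjusted p = 0.976). Of 22 genes of the unfolded protein and integrated stress responses 2 were higher and 5 lower, and only Atf3, a stress transcription factor, was called in all scalings. Atf3 ran from 0.338 to 1.99 (median 0.863) against 0.158 to 0.762 (median 0.273), a log2 change of 1.47 ± 0.15 (SE, limma, adjusted p = 1.81e-09). Of 14 NRF2 targets 4 were higher and 1 lower, 3 higher in all scalings: Gstm3 (1.67), Gsta1 (1.5) and Gstm1 (0.40), all from families that share sequence, and Nqo1 did not pass (0.15, adjusted p = 0.558).

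Cell cycle genes were higher in 16 of 22 and lower in none, 14 in all 3 scalings, with a median of 0.65. Mki67, the proliferation marker, ran from 0.72 to 4.23 (median 1.88) in top and 0.218 to 3.49 (median 0.726) in bottom mice, a log2 change of 1.17 ± 0.26 (SE, limma, adjusted p = 0.000623). Ccnb2 changed by 1.23, Top2a by 1.06 and Ccnd1, the cyclin of cell cycle entry, by 0.87. Interferon-stimulated genes were higher in 14 of 22 and lower in none, 12 in all 3 scalings, with a median of 0.66. Cxcl10 changed by 1.20, Cxcl9 by 1.05 and Gbp2 by 0.83, and Isg15 did not pass (0.58, adjusted p = 0.0573). Among 22 acute phase genes 3 were higher and 6 lower as deposited, near the shares of all tested genes (8.81% and 31.9%). After median-of-ratios rescaling 3 were higher and 0 lower, and after quantile normalization 6 and 0. Lcn2 (1.89) and Orm2 (1.03) were the calls in all 3 scalings, and Saa1 did not pass (0.58, adjusted p = 0.35). Lcn2 ran from 1.01 to 40.2 against 0.25 to 45.3, the highest value being that of a bottom mouse.

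The 12 largest rises of the whole table, by the naming rule, were Mmp12, Sprr1a (2.52), Ubd (2.28), Itgax, Ifi27l2b (2.23), Fam83a (2.16), H19 (2.07), Lcn2, Col1a1, Lgals1 (1.84), Bglap3 (1.71) and Cd207 (1.70). All 12 were called in all 3 scalings, 8 of them in females alone and 10 in males alone. Ubd, a ubiquitin-like modifier that inflammatory cytokines induce, ran from 0.153 to 3.88 (median 0.568) in top and 0 to 0.309 (median 0.0689) in bottom mice, and 16 top mice lay above the bottom range. H19, an imprinted RNA that adult liver normally silences, exceeded the bottom median in 23 of 23 top mice (0.118 to 6.97 against 0 to 1.22). Sprr1a, a cornified envelope gene, was 0 in the median bottom mouse and 0.487 in the median top mouse, but its highest value, 5.22, was in a bottom mouse.

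The 12 largest falls were Dclk3 (-1.67), Slco1a1 (-1.52), E2f7 (-1.51), Hsd3b5 (-1.49), Slc22a7 (-1.44), Sult5a1 (-1.42), Mup9 (-1.42), Mup1 (-1.32), Sult2a7 (-1.28), Acsm2 (-1.21), Egfr (-1.20) and Cd163. Of these 7 were called in all 3 scalings, the exceptions being Slco1a1, Sult5a1, Mup9, Mup1 and Sult2a7. Slc22a7, an organic anion transporter (ENSMUSG00000067144, chr17:46432183-46438457, minus strand), ran from 0.696 to 4.99 (median 1.75) in top and 2.28 to 17.1 (median 6.39) in bottom females. In males it ran from 2.92 to 33.0 (median 10.1) against 8.49 to 42.4 (median 29.0). It was the member of the 12 called in females alone, and its log2 change over both sexes was -1.44 ± 0.27 (SE, limma, adjusted p = 0.000118). Egfr, the growth factor receptor of hepatocytes, had medians of 15.3 and 49.0. Several of the 12, among them Hsd3b5, Slco1a1 and the Mup genes, differ by sex in mouse liver, and Mup1 and Mup9 share 61.6% and 79.1% of their words with other Mup genes, so that their reads cannot be assigned with certainty. Of 16 male-biased genes 6 were lower and none higher as deposited, near the 31.9% of all tested genes that were lower. After median-of-ratios rescaling 5 were lower, beside 5.9% of all genes. In all 3 scalings 3 were lower (Hsd3b5, Capn8, Ugt2b38), beside 3.29%. The list median was -0.96 in males and -0.09 in females. Of 16 female-biased genes 2 were lower as deposited, none in all scalings.

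The sexes were also fitted apart. Females alone gave 128 higher (0.868%) and 72 lower genes (0.488%), and males alone 4647 genes (31.5%), 926 higher (6.28%) and 3721 lower (25.2%). The scores of the top females had a median of 0.43 and those of the top males 1.36, and the median-of-ratios factors of the 2 male groups did not overlap. After median-of-ratios rescaling females had 177 higher and 23 lower genes, and males 1487 called genes of which 1095 were higher. The direct test of the difference passed for 1 of 14751 genes (0.00678%), and 1241 (288 higher and 953 lower) had an unadjusted p under 0.05 in limma. Genes of the p53 and interferon lists had larger estimates in males, with list medians of 0.58 and 1.12 beside 0.18 and 0.36 in females, and no member passed the test of the difference. Higher calls in females alone and males alone numbered 2 and 16 for phagocyte genes and 0 and 8 for MHC class II. For matrix genes they numbered 3 and 17, for cell cycle genes 2 and 12 and for the macrophage marker list 9 and 12. For Cdkn1a the change was 2.28 in males and 0.76 in females, and for Mmp12 4.07 and 2.92.

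**Figure D4:**
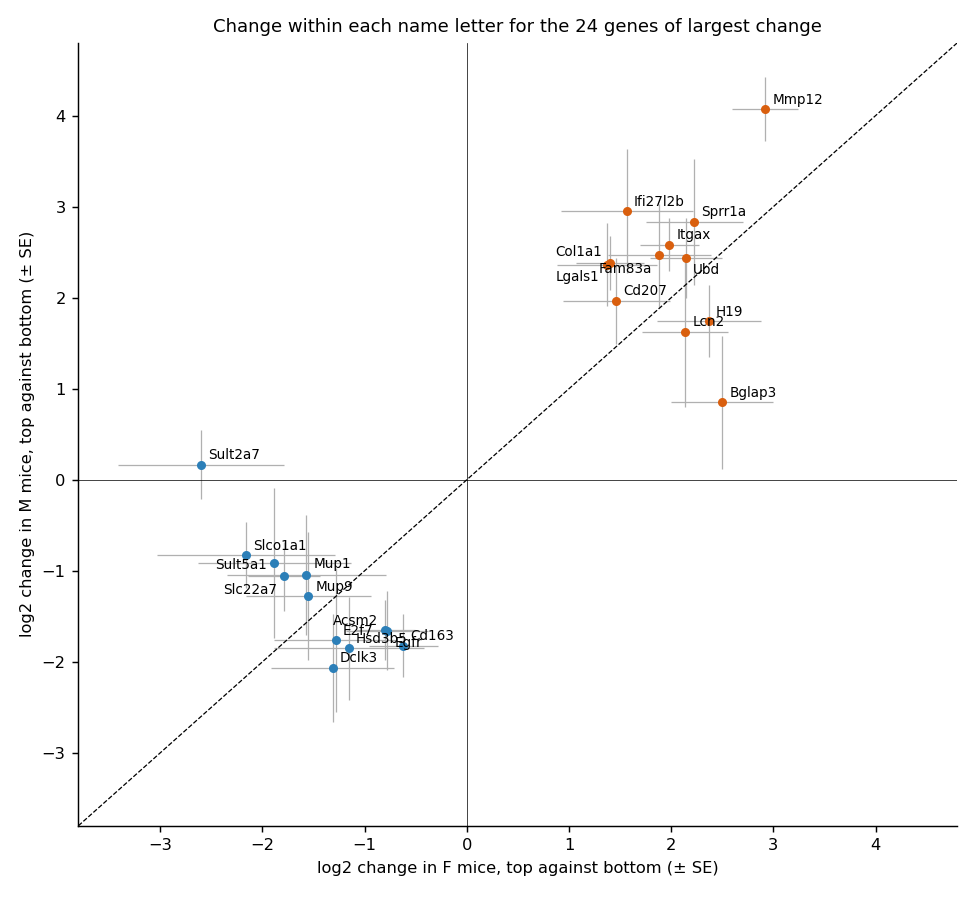
Log2 change of the 24 genes of largest change, with females on the horizontal and males on the vertical axis. All 12 rises are positive in both sexes, and 11 of 12 falls are negative in both, Sult2a7 being -2.60 in females and 0.17 in males.

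Single top mice differed in what accompanied the macrophage genes. The level of a list in each top mouse was set against the highest bottom mouse of its sex, for matrix, interferon, cell cycle, p53, chemokine and lipid droplet genes, lists picked after their values were seen. Of the 23 top mice 3 exceeded that level in none of the 6 lists, 4 in 1, 5 in 2, 5 in 3, 4 in 4 and 2 in 5, and no mouse in all 6. The 3 mice with none were females with scores of 0.17 to 0.80. The 2 mice with 5 lists were a male with a score of 2.55 and a female with 1.55. Matrix genes exceeded the bottom range in 15 mice, all 11 males and 4 females, and interferon genes in 9, of which 8 were males. Chemokine genes did so in 11, lipid droplet genes in 8, p53 genes in 8 and cell cycle genes in 4. All these counts are of deposited values. After median-of-ratios rescaling the bottom range was exceeded in 16 mice for matrix, 11 for interferon and 16 for chemokine genes. For lipid droplet, p53 and cell cycle genes it was exceeded in 10, 12 and 5. The number of lists exceeded by each mouse was not counted after rescaling.

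**Figure D5:**
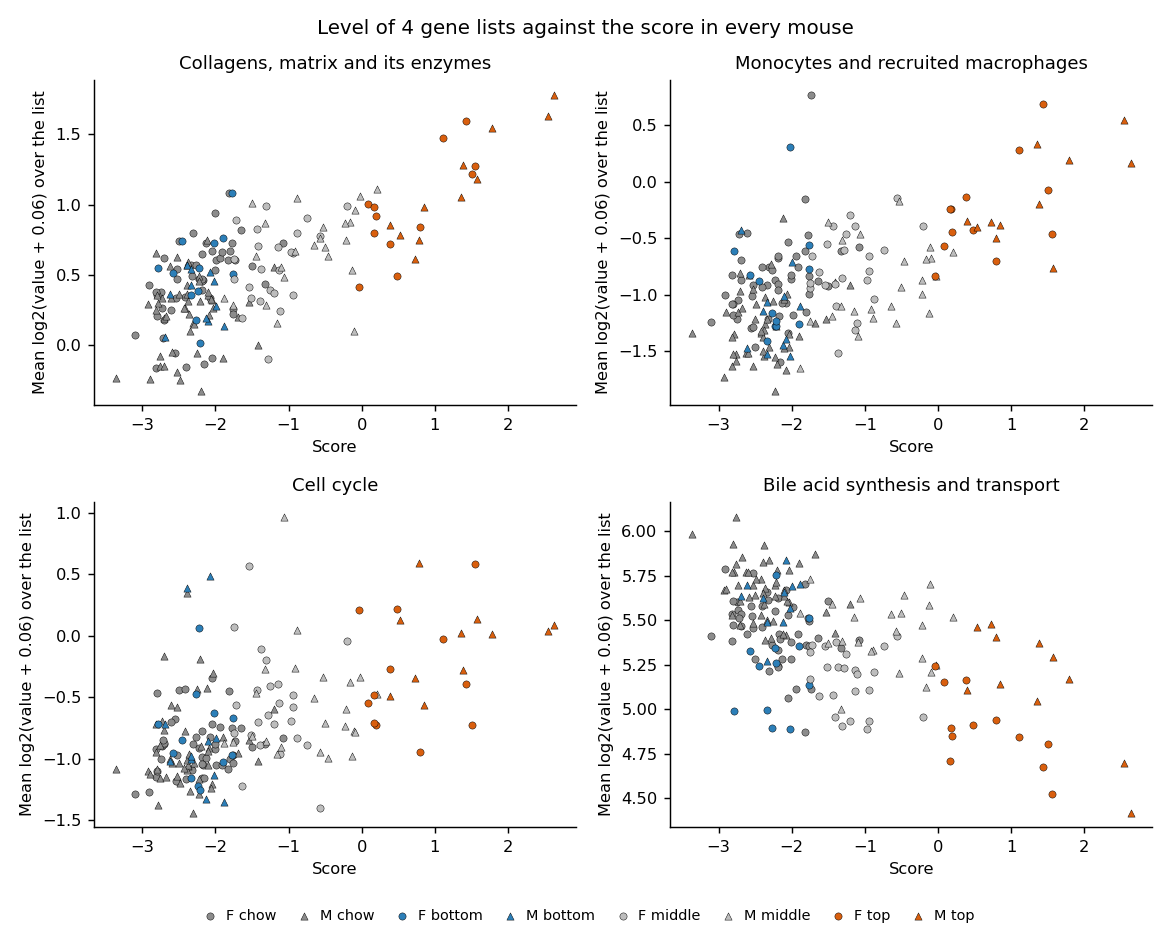
Mean log2(value + 0.06) over the matrix, monocyte, cell cycle and bile acid lists against the score in each of the 192 mice. The matrix list ranges from 0.42 to 1.78 in the 23 top mice and from 0.02 to 1.08 in the bottom group. The bile acid list ranges from 4.42 to 5.48 in the top and from 4.89 to 5.84 in the bottom group.

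Mice that the rule did not compare were examined through the slope of each gene on the score, fitted with sex and generation. In the 48 high fat mice between the 2 groups 1 gene passed (0.00678%), Mmp12, with a slope of 1.04 log2 units per unit of score (limma, adjusted p = 0.00122), and 1620 had an unadjusted p under 0.05. In the 98 chow mice 38 genes had a positive slope past the test (0.258%) and 140 a negative one (0.949%). After median-of-ratios rescaling these were 41 (0.278%) and 17 (0.115%), and after quantile normalization 25 (0.169%) and 14 (0.0949%). Among those as deposited were Col1a2 (0.54, adjusted p = 0.00848), Mmp2 (0.54, adjusted p = 0.0162), Col3a1 (0.47, adjusted p = 0.0277), Col1a1 (0.43, adjusted p = 0.0313), Ccl2 (0.59, adjusted p = 0.0451) and F13a1 (0.63, adjusted p = 0.00954), all by limma. Without the 5 chow mice of highest score 2 positive and 1 negative slope passed, and 1634 had an unadjusted p under 0.05. The mesothelial genes Msln (0.57), Upk3b (0.50) and Upk1b (0.45), which mark the liver surface, also had called slopes in chow mice, and their part in the chow slopes was not tested. In the 2 high fat groups the same genes did not pass and their list summed to 0.351 to 1.52 in top and 0.2 to 3.7 in bottom mice.

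Directions were shared more widely than calls. Of the 966 genes higher in all 3 scalings 79.2% had a slope above 0 in chow mice and 82.0% in the mice between the 2 groups, beside 35.6% and 33.4% of all tested genes. Of the 486 lower genes 18.1% and 15.8% had a slope above 0. Genes are not independent of each other within a mouse, so these shares carry no test. Mmp12 had a chow slope of 0.40 (limma, adjusted p = 0.318) and Itgax one of 0.41 (adjusted p = 0.222), whereas the slopes of Cd163 in chow mice and in the mice between the 2 groups were -0.01 and 0.00.

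Markers of other tissues had few calls. Pancreas transcripts summed to 0.348 to 9.69 (median 1.23) in top and 0.569 to 179 (median 4.89) in bottom mice, with 1 of 11 genes lower (Cela1, -1.15) in all 3 scalings. Red cell transcripts had medians of 86.6 and 101 and no call among 7 genes. The adipose list had 1 tested gene, which did not pass.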

How the data were processed

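The authors deposited 1 table of 21454 genes by 192 mice, whose values are a signal normalized to the upper quartile in each mouse, per the title of the table. The scale factor and any division by gene length are not stated, so levels were not compared between genes. Per the submitters' processing notes, GRCm38 and mm10 were the builds and CASAVA 1.8.0 was run. For aligner, counter and annotation no name is given in the sources used here. No column was left unused (0 others). Low values were not whole reads closely enough to recover counts (tolerance 0.1 read), so no count test was run and depth is an estimate.

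Genes above 0 in at least 23 mice whose mean reached 0.06 were kept (14751, of which 14582 have a symbol). The pseudocount 0.06 is about 1/100 of the median upper quartile, 6.29. Values were tested as log2(value + 0.06), which understates changes of low genes, with limma 3.58.1 in R 4.3.3 (mean-variance trend, sex and generation as covariates). P-values were adjusted by Benjamini-Hochberg over all tested genes, the 3 score genes left out, and a gene was called at an adjusted p under 0.05. On simulated data with known changes the comparison of the 2 groups recovered 46% of genes changed 1.25-fold, 68% at 1.5-fold, 90% at 2-fold and 98% at 4-fold, with 6 false calls among 14754 genes. Recovery and false calls were not tested for groups that differ in scaling, as these do, or for changes in a large share of genes. Slopes used the same limma model in the 98 chow and 48 remaining high fat mice. Gene IDs were matched to GENCODE M21 (21022 matched, 432 not) and promoters to RefSeq by symbol (10937 of 14582). The libraries follow the standard TruSeq protocol, per the labels, with no mention of strand, so overlapping and antisense genes cannot be told apart. Figures used Python 3.11.15 with pandas 2.3.3, SciPy 1.17.1 and matplotlib 3.10.9.

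The mice, the 41 gene lists and the tests were chosen with earlier results of these data known, and the male- and female-biased lists draw on such results in part. The naming rule took the 12 called genes of largest change on either side that have a symbol and reach 10 pseudocounts on average where they are higher; predicted genes and pseudogenes were passed over. It added up to 4 members per list with the smallest p, and up to 6 genes per direction for the sex difference. Other list members named were chosen after their values were seen. Alternatives covered scaling, pseudocount, filter, covariates, the make-up of the score, the cut and single generations. Fits without pancreas-rich mice, without the 10 mice least alike, without the 5 chow mice of highest score, and with rescaled score and values were added after seeing the data. Some called members of the gene lists are counted but not reported here by name.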

Additional observations from a re-analysis of the deposited data

Results flagged for a closer look

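Cspg5, which encodes a membrane proteoglycan best known from brain (ENSMUSG00000032482, chr9:110243783-110262576, plus strand, GRCm38), stood apart because its change differed between the sexes in a direct test. In males it ran from 0.013 to 0.3 (median 0.0698) in the top and 0.0794 to 2.06 (median 0.58) in the bottom group, and in females from 0.0132 to 0.0921 against 0.0137 to 0.0698. The log2 change was -2.15 in males and 0.06 in females. The male minus female difference was -2.134 ± 0.38 (SE, limma, adjusted p = 0.0193). It did not pass with a pseudocount 10 times smaller, nor with a filter at a mean of 10 pseudocounts, where the gene was not tested. The female values lie near or below the pseudocount of 0.06, so a change there could scarcely be seen at this depth.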

How the results depend on the processing

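No paired analysis was possible because the labels' repeat numbers mark technical repeats that the table merges into 1 column per mouse. Counts of called genes depended on the settings as follows. With a filter at a mean of 10 pseudocounts, which tests fewer genes, 681 were higher between the 2 groups, 17 for the chow slope and 518 in males alone, and 127 were called in females alone, 64 of them higher. Median-of-ratios rescaling left 870 lower between the groups and 17 for the chow slope, and males alone had 1487 calls, 1095 of them higher against 926 of 4647 before rescaling. After quantile normalization 908 were lower between the groups and 14 for the chow slope, which had 25 higher, females alone had 132 calls, 119 higher and 13 lower, and males alone 963 calls, 675 higher and 288 lower. G11L1 mice alone (22 mice) gave 112 higher and 88 lower, and G11L2 mice alone (24 mice) 983 and 3153; of 179 genes taken by the naming rule 137 no longer passed in the first and 35 in the second. Requiring a 1.5-fold change left 520 and 179. A score and values both rescaled gave 1098 lower, and the slope over all high fat mice with both rescaled 2416 higher and 1745 lower. For the sex difference 2 lower genes passed with a pseudocount 10 times larger and 0 with one 10 times smaller or with the filter. For the chow slope 78 lower remained without the 10 mice least alike, and 2 higher and 1 lower without the 5 chow mice of highest score. The cause was not tested.

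Over 179 genes taken by the naming rule and 26 settings, 4124 values kept direction and side of the threshold, 434 kept direction but no longer passed, 50 newly passed and 9 turned. These were Atp6v0d1 (0.0124) and Hnf4a (0.00118) under quantile normalization, Atp6v1h under quantile normalization (0.0171) and with score and values rescaled (0.00066), Atp6ap1 under median-of-ratios rescaling (0.00345), quantile normalization (0.0501), score and values rescaled (0.0108) and the rescaled slope (0.0089), and Slc11a1 in G11L1 mice (-0.0856). Precision is limited by the number of mice and, for genes near the pseudocount, by a few reads per mouse.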
